A study of Homo sapiens with 4 samples.

Results

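The desmosome and tight junction genes of BEAS-2B cells were described from 10 listed genes, DSP, JUP, PKP2, PKP3, DSG2, DSC2, CLDN1, OCLN, TJP1 and F11R, among 23004 gene names in the files. They were chosen by name, and all 10 were found. BEAS-2B is an immortalized line of human bronchial epithelial cells. Total RNA was sequenced from 2 untreated libraries and from 2 libraries of cells exposed to 100 µM formaldehyde for 48 h. The treatment label gives dose and time, and the compound is named in the series title and design text. All 4 libraries come from this single line. Whether the replicates were separate cultures is not in the labels, and p-values therefore speak only of the scatter among these libraries, possibly a technical one. Levels are FPKM (fragments per kilobase, relative to all mapped fragments), summed over the transcripts of a gene. They are per length and can be compared between genes.

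Desmosomes are spot-like junctions that tie the keratin filaments of neighbouring epithelial cells together. In them, cadherins of the desmoglein and desmocollin families meet across the gap between cells, plakoglobin (JUP) and the plakophilins bind the cadherin tails, and desmoplakin (DSP) links this plaque to keratin. Tight junctions seal the gap between cells. Claudins form their strands and set which ions pass, occludin (OCLN) and the adhesion molecule JAM-A (F11R) lie in the same membrane, and the scaffold ZO-1 (TJP1) ties the strands to actin. In airway epithelium both junctions are part of the barrier to inhaled material.

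Depth, as worked out from the deposited coverage, ran from 14.2 to 26.5 M fragments per library (M, mega), with the second replicate deeper than the first in both groups. The epithelial markers were mixed. KRT8, a keratin of simple epithelium, stood at 290 to 447 FPKM, while KRT19 was at 0.378 FPKM at most. Among basal cell markers KRT5 and TP63 were listed at 0 in all 4 libraries and KRT15 was at 0.387 FPKM at most, but KRT17 stood at 26.4 to 178 FPKM and KRT14 at 0.222 to 4.66 FPKM. CDH1, the E-cadherin of epithelia, stood at 0.0610 to 0.631 FPKM, beside 35.0 to 46.2 FPKM for CDH2, the N-cadherin of mesenchymal cells, and 642 to 1043 FPKM for VIM, the intermediate filament of mesenchymal cells. The 11 markers of fibroblasts and mesenchyme were mixed as well. VIM, CDH2, COL1A1, THY1, FN1 and PDGFRB, 6 in all, reached 1 FPKM in every library, COL1A1 at 137 to 568 FPKM. COL1A2 reached it only in some. The other 4, COL3A1, PDGFRA, DCN and LUM, stayed at 0.405 FPKM or less. EPCAM, a surface marker of epithelia, stood at 0.983 to 3.18 FPKM. Endothelial markers summed to 0.284 to 0.914 FPKM over all 7, and the 7 leukocyte markers to 16.5 to 44.6 FPKM. PTPRC, the pan-leukocyte marker, was at most 0.0232 FPKM and CD3E and HBB were listed at 0. CD68, a lysosomal protein best known from macrophages, was at 12.8 and 16.4 FPKM in the untreated libraries and 42.8 and 22.0 FPKM in the formaldehyde libraries (limma unadjusted p = 0.0365, adjusted p = 0.9999), and CD14 was at 1.77 to 12.0 FPKM.

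Of the 10 genes, 9 reached 1 FPKM in every library, and DSC2 reached it in none. CLDN1 had the highest level, with a mean of 65.1 FPKM over the 4 libraries, above 88.5% of the 12407 genes tested. It was followed by JUP at 24.2, F11R at 17.9, TJP1 at 14.6, PKP3 at 11.99, DSG2 at 8.35, PKP2 at 5.65, DSP at 4.43 and OCLN at 3.34 FPKM. DSC2 stood at 0.452 FPKM. The lowest CLDN1 library lay above the highest JUP library, and the lowest OCLN library above the highest DSC2 library. For every other pair of neighbours in this order the ranges over the 4 libraries overlapped. PKP2 and DSP changed places between libraries, DSP being the higher of them in both formaldehyde libraries and the lower in both untreated ones.

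The desmosomal genes lie apart in the genome except for the cadherins, in the coordinates of the files (hg19): DSP at chr6:7541870-7586946, JUP at chr17:39910859-39942964, PKP2 at chr12:32943680-33049780 and PKP3 at chr11:394217-404908, with DSC2 at chr18:28645942-28682388 and DSG2 at chr18:29078027-29128814 in the cadherin cluster of chromosome 18. An antisense gene, LOC100652770, overlaps DSG2 and stood at 0.119 FPKM at most. The tight junction genes are CLDN1 at chr3:190023490-190040235, OCLN at chr5:68788119-68853931, TJP1 at chr15:29992357-30114706 and F11R at chr1:160965001-160991133.

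**Figure D1:**
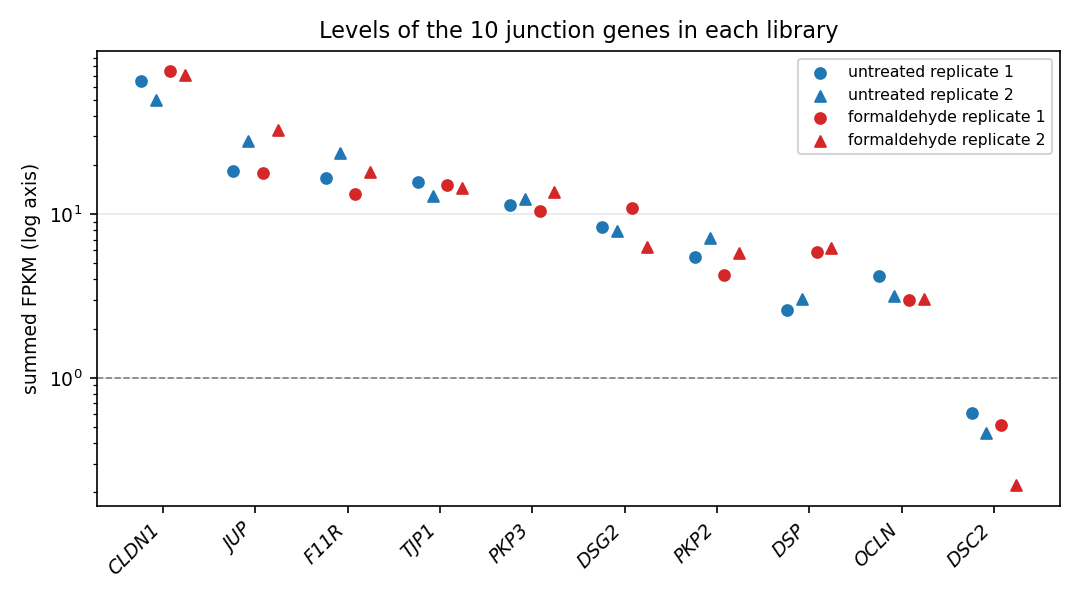
Summed FPKM of the 10 junction genes (log axis) in each of the 4 libraries, ordered by mean; blue is untreated and red formaldehyde, circles are replicate 1 and triangles replicate 2, and the dashed line marks 1 FPKM. CLDN1 lies above all others, DSC2 lies under the line in every library, and the red points of DSP (5.89 and 6.21 FPKM) lie above its blue points (2.58 and 3.03 FPKM).

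None of the 9 genes that reached the filter of a mean of 1 FPKM changed with formaldehyde by limma's test over all 12407 genes (adjusted p = 0.9999 for each), and DSP alone had an unadjusted p under 0.05. Over all genes 0.0806% were called higher and 0.0725% lower (0.153% together), and 2.76% had an unadjusted p under 0.05. The groups did not overlap in 2 members that were higher with formaldehyde, DSP and CLDN1, where 16.2% of all genes tested were higher in this way, and in 1 that was lower, OCLN, where 10.7% were lower. In either direction that is 3 of 9 members beside 26.9% of all genes. The median log2 fold change of the 9 was 0.04, beside 0.03 over all genes tested, 6 being above 0 and 3 below. With 2 libraries a group, the smallest p of an exact two-sided permutation test is 0.333.

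Of the desmosomal plaque genes, DSP had the widest gap between the groups. Its product desmoplakin is the plaque protein that holds the keratin filaments. DSP stood at 2.58 and 3.03 FPKM in the untreated libraries and at 5.89 and 6.21 FPKM in the formaldehyde libraries. Both formaldehyde libraries lay above both untreated ones, and the replicates of each group lay close together. The group means were 2.81 ± 0.318 and 6.05 ± 0.229 FPKM (SD, n = 2 each), a ratio of 2.16. On the scale of FPKM + 1, which understates the change of low genes, the log2 fold change was 0.89 ± 0.21 (SE), with a limma unadjusted p = 0.00795 and an adjusted p = 0.9999. By unadjusted p DSP ranked 65 among the genes tested, and 1.99% of them had a higher log2 fold change. The values rested on an estimated 421 and 780 fragments untreated and 780 and 1339 with formaldehyde. The log2 fold change of DSP lay between 0.73 and 1.09 under the alternatives in which it was tested, and its adjusted p was never under 0.416. In the same libraries the 11 markers of bronchial and general epithelium summed to 736 and 824 FPKM in untreated cells against 1402 and 1205 FPKM after formaldehyde. Most of this sum came from KRT7 (140 to 531 FPKM), KRT8 (290 to 447 FPKM) and KRT18 (206 to 418 FPKM). Of the 6 markers tested, these 3 keratins of simple epithelium were higher without overlap, where 16.2% of all genes were. EPCAM, KRT14 and KRT17 overlapped, the last 2 with log2 fold changes of -0.44 and -0.35. Of the 5 not tested, KRT19 and CDH1 were lower without overlap, KRT15 was higher, and KRT5 and TP63 stayed at 0. The part of these markers in the difference of DSP was not tested, and in bulk libraries a change in the number of cells of a type and a change in RNA per cell cannot be told apart.

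The armadillo proteins of the plaque showed no such gap. JUP, whose product plakoglobin also sits at adherens junctions, stood at 18.3 and 28.1 FPKM in untreated cells against 17.8 and 32.7 FPKM after formaldehyde. The first replicates of both groups were alike and the second replicates were higher in both, so that the groups overlapped. The log2 fold change of JUP, 0.09 ± 0.38, turned negative without untreated replicate 1 (-0.21) or without formaldehyde replicate 2 (-0.33). PKP3, a plakophilin found in most epithelia, stood at 11.4 and 12.4 FPKM in untreated cells against 10.5 and 13.7 FPKM after formaldehyde. The untreated values lay between the others, and the sign of its log2 fold change of 0.02 ± 0.22 turned under each rescaling of the libraries. PKP2, the plakophilin of simple epithelia and heart muscle, stood at 5.44 and 7.11 FPKM in untreated cells against 4.25 and 5.80 FPKM after formaldehyde. Its untreated mean was the higher, but 1 formaldehyde library lay above 1 untreated library, and the log2 fold change was -0.27 ± 0.25 (limma unadjusted p = 0.324). For PKP2 it became -0.44 or -0.11 when untreated replicate 1 or 2 was dropped, and -0.0872 or -0.46 when formaldehyde replicate 1 or 2 was. DSP, JUP, PKP2, PKP3 and F11R were each higher in the second replicate of both groups. DSG2, DSC2, CLDN1 and TJP1 were each lower in the second replicate of both groups, and OCLN was lower in it only in untreated cells. That replicate was also the deeper library (26.5 against 16.8 M fragments untreated, 22.2 against 14.2 M with formaldehyde), and the part of depth was not tested.

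DSG2 was the only desmoglein with a level above 0, and DSG1, DSG3 and DSG4 were listed at 0 in all 4 libraries. Desmoglein 2 is the widely expressed member of that cadherin family. DSG2 stood at 8.34 and 7.86 FPKM in untreated cells against 10.9 and 6.28 FPKM after formaldehyde. The formaldehyde libraries held both the highest and the lowest value, with the untreated values between them. DSG2 had a log2 fold change of 0.04 ± 0.30, which was -0.32 without formaldehyde replicate 1, with a sign that also turned under median-ratio and FPKM-sum scaling.

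DSC2, the desmocollin that usually accompanies desmoglein 2 in simple epithelia, was low. It stood at 0.614 and 0.461 FPKM in untreated cells against 0.514 and 0.221 FPKM after formaldehyde, from an estimated 25 to 63 fragments per library. One formaldehyde library lay between the untreated ones and the other below them. DSC2 did not reach the filter, and with no filter its log2 fold change was -0.18 ± 0.15 (limma adjusted p = 1). The main desmocollin of these cells was DSC3, typical of the basal layers of stratified epithelium, at 22.2 and 21.7 FPKM in untreated cells against 15.3 and 16.5 FPKM after formaldehyde. DSC3 made up 96.8% to 98.7% of the FPKM of the 3 desmocollins in each library, and DSC1 was listed at 0. Each formaldehyde library held less DSC3 than either untreated library, and its log2 fold change was -0.44 ± 0.19 (limma unadjusted p = 0.0640, adjusted p = 0.9999).

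**Figure D2:**
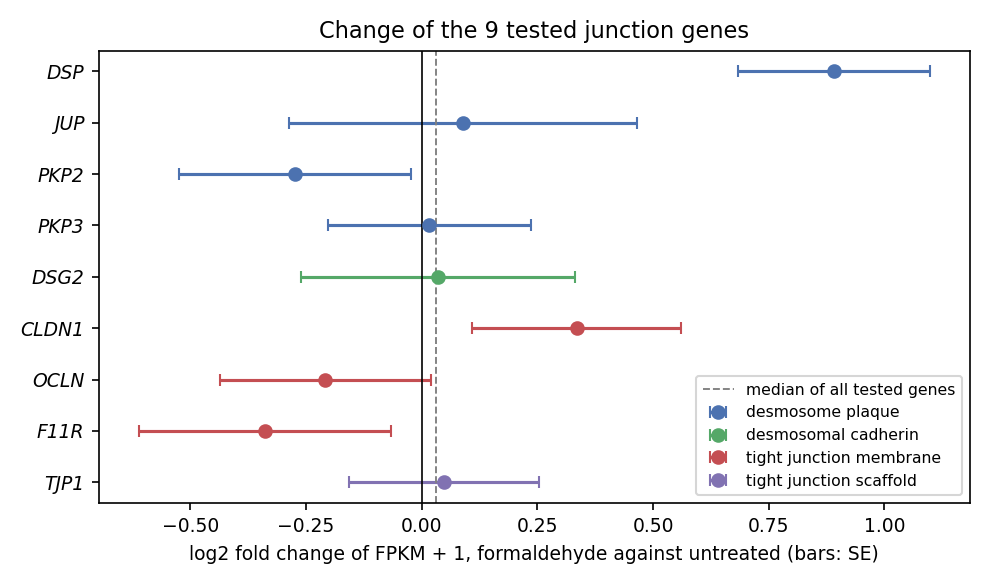
Log2 fold change of FPKM + 1, formaldehyde against untreated, with its standard error for the 9 genes tested, coloured by role; the dashed line is the median of all genes tested (0.03). DSP lies at 0.89, and the other 8 lie between -0.34 and 0.33.

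Among the tight junction membrane genes, CLDN1, a sealing claudin of skin and airway, stood at 65.4 and 50.1 FPKM in untreated cells against 74.4 and 70.6 FPKM after formaldehyde. The formaldehyde values were both above the untreated ones. The distance between the untreated libraries was larger than that from the higher of them to either formaldehyde library. CLDN1 had a log2 fold change of 0.33 ± 0.23 (limma unadjusted p = 0.199), which became 0.15 when untreated replicate 2 was left out and 0.52 when replicate 1 was. F11R, the gene of JAM-A, stood at 16.7 and 23.6 FPKM in untreated cells against 13.2 and 18.2 FPKM after formaldehyde. The groups overlapped, and the log2 fold change of F11R was -0.34 ± 0.27 (limma unadjusted p = 0.270). Leaving out untreated replicate 1 or 2 gave -0.57 or -0.10, and leaving out formaldehyde replicate 1 or 2 gave -0.12 or -0.55. OCLN stood at 4.19 and 3.15 FPKM in untreated cells against 2.9998 and 3.03 FPKM after formaldehyde. The formaldehyde libraries were the lower ones, but untreated replicate 2 lay next to them. OCLN had a log2 fold change of -0.21 ± 0.23, and -0.05 without untreated replicate 1 or -0.37 without untreated replicate 2. The value of OCLN is uncertain, because the files also list LOC647859, named OCLNP1 in RefSeq, a transcribed pseudogene of occludin, at 4.70 to 7.64 FPKM, and reads shared by both could have been split between them.

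TJP1, the gene of the scaffold ZO-1, had the smallest ratio of highest to lowest library of the 10 genes, 1.23. It stood at 15.8 and 12.8 FPKM in untreated cells against 15.1 and 14.5 FPKM after formaldehyde, the latter lying between the former. The log2 fold change of TJP1 was 0.05 ± 0.20 (limma unadjusted p = 0.825), with a negative sign without untreated replicate 2 (-0.09) and under FPKM-sum scaling (-0.01).

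The files list more than 1 transcript for 6 members, and in TJP1 and DSC2 they differ by a single exon that is kept or skipped. These exons are shown because the deposited FPKM are split between the forms with and without them. The sequences are those of GENCODE release 29 transcripts (GRCh38), matched to the RefSeq transcripts of the files, 5′ to 3′ on the gene's strand; the alternative exon is in capitals, with 15 bases of the exon before and after it in lower case.
TJP1 exon, 240 bases, GRCh38 chr15:29719777-29720016, minus strand: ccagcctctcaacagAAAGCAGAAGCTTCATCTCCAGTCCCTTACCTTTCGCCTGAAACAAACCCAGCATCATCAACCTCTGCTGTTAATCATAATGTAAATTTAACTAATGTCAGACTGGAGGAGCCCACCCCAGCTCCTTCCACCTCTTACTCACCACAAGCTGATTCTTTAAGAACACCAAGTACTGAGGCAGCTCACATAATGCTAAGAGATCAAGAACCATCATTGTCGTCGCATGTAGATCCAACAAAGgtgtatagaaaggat
DSC2 exon, 46 bases, GRCh38 chr18:31068299-31068344, minus strand: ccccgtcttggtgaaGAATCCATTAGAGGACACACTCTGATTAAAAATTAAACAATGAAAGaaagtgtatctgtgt
In the coordinates of the files (hg19) the TJP1 exon lies on chromosome 15 from 30011981 to 30012220 and the DSC2 exon on chromosome 18 from 28648265 to 28648310. The length of the TJP1 exon is divisible by 3, and that of the DSC2 exon is not. For both at least 1 GENCODE transcript matched to the other RefSeq form joined the flanking bases directly.

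The TJP1 exon encodes the alpha segment of ZO-1, known as the form of most epithelia when present and of endothelium and some specialised epithelia when absent. The transcript with the exon (NM_003257) stood at 4.40 and 5.02 FPKM in untreated cells against 1.85 and 3.28 FPKM after formaldehyde, and the transcript without it (NM_175610) at 11.4 and 7.83 FPKM in untreated cells against 13.2 and 11.2 FPKM after formaldehyde. The form that skips the exon was thus the major one in every library. The share of the exon-bearing form was 27.8% and 39.1% in the untreated libraries and 12.3% and 22.7% in the formaldehyde libraries, 33.4% ± 7.95 and 17.5% ± 7.39 (SD, n = 2 each). The formaldehyde shares were both under the untreated ones, with a difference of means of -15.9 percentage points. It was -10.3 points without untreated replicate 2 and -10.7 without formaldehyde replicate 1, and -21.6 and -21.2 points without the other replicate of each group. The authors' deposited bounds for the exon-bearing form overlapped between untreated replicate 1 (3.70 to 5.10 FPKM) and formaldehyde replicate 2 (2.73 to 3.84 FPKM), and lay apart for the other pairs across the groups. In limma's test over 16722 transcripts, added after the data were seen, its log2 fold change was -0.71 ± 0.32 (unadjusted p = 0.0915, adjusted p = 0.9999). Among 3693 genes with more than 1 transcript and a mean of at least 5 FPKM, the share of the most abundant transcript did not overlap between the groups in 23.9%, and 8.88% had a change of share at least as large as that of TJP1. Of the 3 members in that set, JUP and TJP1 did not overlap and PKP2 did.

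The use of the DSC2 exon could not be judged. DSC2 was assigned to the form without the 46-base exon (NM_024422, desmocollin 2a) at 0.221 to 0.614 FPKM. The form with it was at 0.000165 FPKM at most, with a deposited upper bound of up to 0.0281 FPKM. An estimated 25 to 63 fragments per library, spread over the whole transcript, are too few to cover so short an exon reliably.

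The transcripts of JUP, DSP and OCLN differ in longer segments or in their first exon. For JUP, a kept intron of 297 bases in the last part of the gene on chromosome 17 (hg19, 39911685 to 39911981), kept in NM_002230 and spliced out of NM_021991, marked 39.3% and 30.0% of the FPKM in untreated cells against 22.6% and 27.4% with formaldehyde. The form that keeps it was the minor one throughout and lower in share in both formaldehyde libraries, by a difference of -9.71 percentage points that was -5.06 without untreated replicate 1. In level the groups of this form overlapped, at 7.19 and 8.45 FPKM in untreated cells against 4.03 and 8.96 FPKM after formaldehyde. Its log2 fold change in the test over transcripts was -0.31 ± 0.41 (limma unadjusted p = 0.481). For DSP, the forms I and II differ by 1797 bases of the exon that encodes the rod of desmoplakin, which form II (NM_001008844) lacks. Form II made up 1.32% and 0.00% untreated and 23.1% and 1.40% with formaldehyde. Only formaldehyde replicate 1 departed from the rest (the difference of 11.6 percentage points was 0.743 without it and 22.5 without formaldehyde replicate 2), and there the deposited bounds were 0 to 6.49 FPKM for form II and 0.350 to 8.70 FPKM for form I, so that the split was not resolved. Form I alone stood at 2.55 and 3.03 FPKM in untreated cells against 4.53 and 6.12 FPKM after formaldehyde. For OCLN, the form with the upstream first exon (NM_002538) made up 2.80% and 3.74% untreated and 8.02% and 10.6% with formaldehyde, and the form starting at the next exon (NM_001205254) nearly all the rest. In level NM_002538 was low, at 0.117 and 0.118 FPKM in untreated cells against 0.241 and 0.320 FPKM after formaldehyde. Its deposited bounds overlapped for every pair of libraries across the groups. With a mean of 3.34 FPKM, OCLN also lay under the 5 FPKM asked of genes whose shares were compared.

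**Figure D3:**
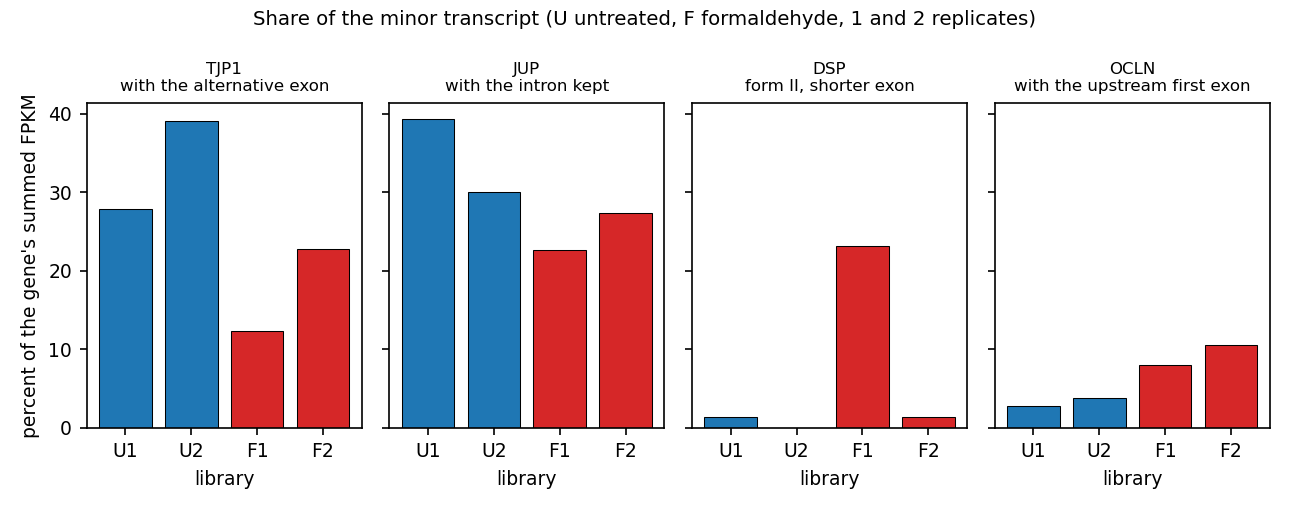
Percent of a gene's summed FPKM assigned to its minor transcript in each library for TJP1, JUP, DSP and OCLN (U untreated in blue, F formaldehyde in red, 1 and 2 the replicates). The TJP1 bars are 27.8% and 39.1% untreated and 12.3% and 22.7% with formaldehyde, and the DSP bar of formaldehyde replicate 1 stands alone at 23.1%.

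The wider junction set was read from 5 further lists. Together with the 10 members, 82 junction genes were found, 43 of which reached 1 FPKM in every library. Among all 23004 gene names, 12049 to 12379 reached it in a given library, a similar share. Of the 48 tested, 0 rose and 0 fell by limma over all genes. An unadjusted p under 0.05 was reached by 2 of them (DSP and AMOT), beside 2.76% of all genes.

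Of 10 other desmosome genes, 4 reached 1 FPKM in every library and 4 were listed at 0. PKP4, a plakophilin-related protein that is also found at adherens junctions, stood at 22.4 to 24.5 FPKM, above the other plakophilins. EVPL, the envoplakin that links desmosomes to the cornified envelope, stood at 7.96 and 12.1 FPKM in untreated cells against 9.92 and 13.4 FPKM after formaldehyde. PERP, a desmosomal membrane protein known as a p53 and p63 target, stood at 7.53 and 6.27 FPKM in untreated cells against 13.4 and 8.67 FPKM after formaldehyde. Both formaldehyde values of PERP were above both untreated ones, with a log2 fold change of 0.58 ± 0.27 (limma unadjusted p = 0.0852). The 4 tested had a median log2 fold change of 0.12. PERP was the single one higher without overlap and DSC3 the single one lower, beside 16.2% and 10.7% of all genes.

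Claudins were dominated by a gene outside the members. CLDN11, best known from myelin and from Sertoli cells of the testis, stood at 122 and 111 FPKM in untreated cells against 200.2 and 157 FPKM after formaldehyde. It exceeded CLDN1 by 1.87 to 2.69 times in each library and made up 58.6% to 66.9% of the FPKM of all 23 claudins, with CLDN1 at 24.9% to 31.4%. CLDN11 was higher in each formaldehyde library than in either untreated one, with a log2 fold change of 0.60 ± 0.23 (limma unadjusted p = 0.0523, adjusted p = 0.9999). Of the 6 claudins tested outside the members, only CLDN11 had groups without overlap, beside 26.9% of all genes tested. CLDN12, a claudin that lacks the usual PDZ-binding tail, followed at 7.93 to 13.0 FPKM, CLDN15, a claudin that forms cation pores in gut, at 2.49 to 5.31 FPKM and CLDN7, a claudin of many epithelia, at 1.61 to 4.30 FPKM. In all, 6 of 23 claudins reached 1 FPKM in every library and 16 stayed below it in every library, with CLDN8, CLDN17 and CLDN25 listed at 0.

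**Figure D4:**
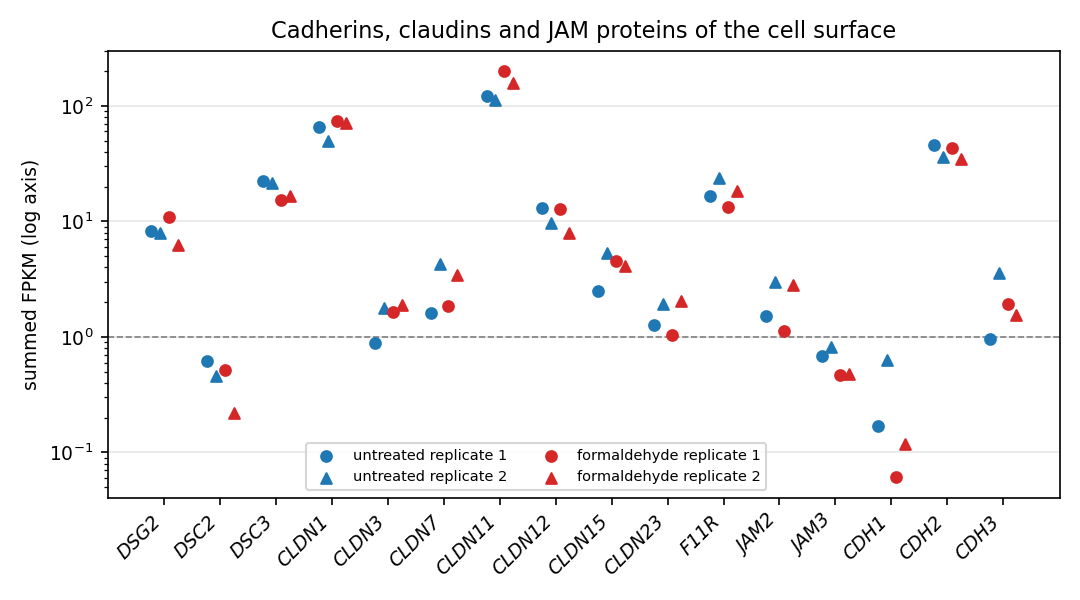
Summed FPKM (log axis) of desmosomal and classical cadherins, of claudins with a mean of at least 1 FPKM, and of JAM proteins in each library; colours and shapes as for the 10 genes, dashed line at 1 FPKM. DSC3 lies far above DSC2, CLDN11 above CLDN1, F11R above JAM2 and JAM3, and CDH2 above CDH1.

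The other tight junction membrane proteins were few. LSR, the angulin of tricellular contacts, was the highest of the 11 at 27.3 and 60.0 FPKM in untreated cells against 34.0 and 57.8 FPKM after formaldehyde, higher in the deeper second replicate of each group. CXADR, the coxsackie and adenovirus receptor, stood at 4.15 and 5.17 FPKM in untreated cells against 2.44 and 3.45 FPKM after formaldehyde. Its groups did not overlap, and its log2 fold change was -0.53 ± 0.25 (limma unadjusted p = 0.0884). CXADR was the only 1 of the 3 tested in this list without overlap, beside 26.9% of all genes tested. JAM2, a relative of JAM-A best known from endothelium, stood at 1.13 to 2.99 FPKM, and F11R made up 84.5% to 89.2% of the FPKM of the 3 JAM genes. MARVELD2, the tricellulin that accompanies occludin, stayed at 0.851 to 0.934 FPKM.

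Of the scaffold and polarity genes, 13 of the 17 found reached 1 FPKM in every library, and TJP3 was not analysed here. AMOTL2 stood at 47.4 to 79.8 FPKM, TJAP1 at 17.6 to 26.7 FPKM and PRKCI, the atypical protein kinase C of the polarity complex, at 12.6 to 21.7 FPKM, each with overlapping groups. PARD3, the polarity scaffold that recruits this kinase, stood at 15.9 and 13.8 FPKM in untreated cells against 19.1 and 18.4 FPKM after formaldehyde, and AMOT, an angiomotin that binds polarity proteins, at 3.50 and 3.87 FPKM in untreated cells against 1.92 and 2.36 FPKM after formaldehyde. Neither overlapped between the groups, with log2 fold changes of 0.32 ± 0.19 for PARD3 and -0.58 ± 0.22 for AMOT (limma unadjusted p = 0.165 and 0.0473). In this list 2 of the 15 tested were higher and 2 lower without overlap, beside 16.2% and 10.7% of all genes, and the median log2 fold change was -0.03.

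Of the 12 adherens junction genes, 9 reached 1 FPKM in every library, CDH3 and PVRL4 in some, and CDH1 in none. CTNNA1, the alpha-catenin that links cadherins to actin, stood at 125 to 153 FPKM, CTNNB1, beta-catenin, at 55.7 to 99.2 FPKM, PVRL2 (nectin 2) at 68.1 to 131 FPKM and VCL, vinculin, at 57.7 to 60.7 FPKM, all with overlapping groups. PVRL4 (nectin 4) stood at 0.271 and 0.149 FPKM in untreated cells against 3.41 and 0.355 FPKM after formaldehyde, so that its log2 fold change of 1.02 ± 0.60 rested on formaldehyde replicate 1. It was the only 1 of the 11 tested whose groups did not overlap, beside 26.9% of all genes tested.

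**Figure D5:**
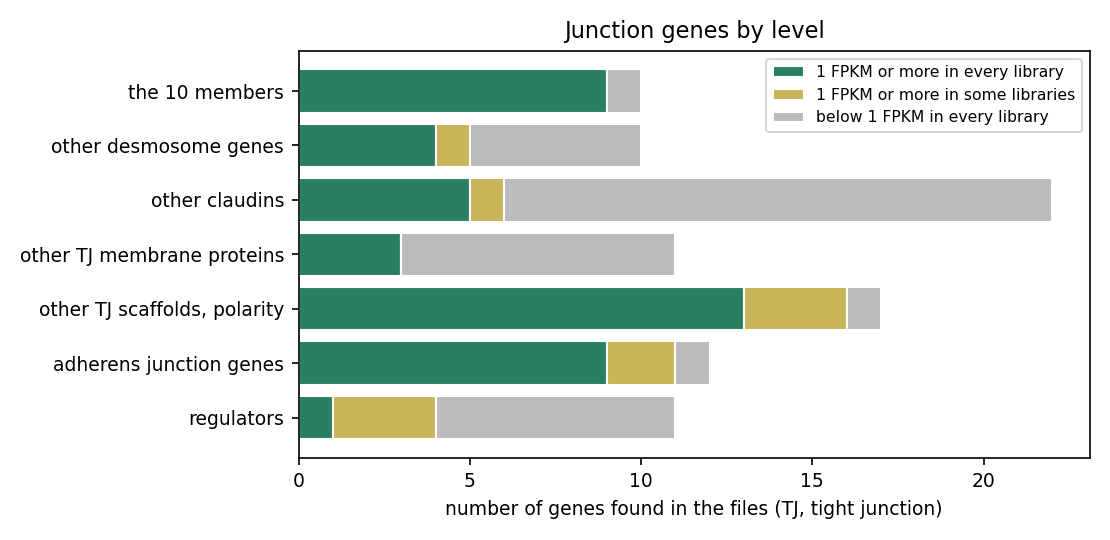
Number of genes found in the files for the 10 members and for each further list, split by whether the gene reached 1 FPKM in every library (green), in some (yellow) or in none (grey). Green covers 9 of the 10 members, 5 of 22 other claudins and 13 of 17 scaffold and polarity genes.

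The regulators known to maintain epithelial junction genes were mostly low. GRHL2 and TP63 were listed at 0, and 7 of the 11 stayed below 1 FPKM in every library. ELF3, an ETS factor of epithelia, stood at 9.29 and 14.4 FPKM in untreated cells against 0.624 and 6.19 FPKM after formaldehyde. Both formaldehyde libraries were lower, with wide spread between them, and the log2 fold change was -1.88 ± 0.73 (limma unadjusted p = 0.0512, adjusted p = 0.9999). KLF5 stood at 6.53 and 7.54 FPKM in untreated cells against 5.45 and 5.81 FPKM after formaldehyde, and GRHL1, a grainyhead factor known to act on desmosomal cadherin genes, at 1.10 and 1.46 FPKM in untreated cells against 0.703 and 0.874 FPKM after formaldehyde. These 3 were lower without overlap, where 10.7% of all genes were, and none of them passed the test (limma adjusted p = 0.9999). Over the 4 regulators tested the log2 fold change had a median of -0.31. KLF4 stood at 0.654 and 3.63 FPKM in untreated cells against 2.83 and 1.96 FPKM after formaldehyde.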

How the data were processed

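RNA of 4 BEAS-2B libraries was analysed, 2 untreated and 2 exposed to formaldehyde. The authors deposited 1 file of transcript estimates per library, matched to its sample by the title in its name, with FPKM, bounds of a 95% confidence interval and coverage as text per the file contents. Cufflinks 2.0.2, STAR 2.5.2 and FastQC 0.10.0 with hg19 and GRCh37 are named in the submitters' processing notes. For the strand setting and the handling of multi-mapped reads, nothing is stated in these sources (not given in the sources used here). FPKM deposited by the authors were summed per gene name over 40255 transcripts, leaving out 894 with no gene name (1.07% to 1.31% of FPKM). Fragment numbers were estimated from the deposited coverage and a recovered read length of 51 nt, and cover counting error only.

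The test was limma 3.58.1 (R 4.3.3) on log2(FPKM + 1) of genes with a mean of 1 FPKM or more (trend, two-sided, Benjamini-Hochberg over all 12407 genes, threshold 0.05), without covariates or rescaling. It was checked on simulated data, with fold changes larger than that of any member and placed only in genes of higher mean than DSP. The check therefore does not speak of changes as small as those of the members. No count test was run. The members and lists were chosen with earlier results of these data known. All members were named, and of each other list the 4 highest genes, the 2 largest changes without overlap, any gene past the threshold and genes listed at 0; markers are named beside the results they touch. Some genes and a sequence that fall under these lists are not reported here. Alternatives covered the pseudocount, filter, scaling, gene length, highest transcript, eBayes settings, replicate block and each library left out. Figures were drawn with matplotlib 3.10.9 in Python 3.11.15.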

Additional observations from a re-analysis of the deposited data

How the results depend on the processing

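No member passed limma's adjusted threshold under any of the 133 combinations of member and alternative, where the smallest adjusted p was 0.416 (DSP), and 13 of them turned the sign. With a library left out JUP ranged from -0.33 (without formaldehyde replicate 2; -0.21 without untreated replicate 1) to 0.51. PKP3 was -0.0229 under median-ratio, -0.0442 under FPKM-sum and -0.0203 under quantile scaling, and -0.16 to 0.19 with a library left out (below 0 without untreated replicate 1 or formaldehyde replicate 2). DSG2 was -0.0024 under median-ratio and -0.0245 under FPKM-sum scaling and -0.32 (without formaldehyde replicate 1) to 0.39 with a library left out, and TJP1 was -0.0138 under FPKM-sum scaling and -0.0925 (without untreated replicate 2) to 0.19. The members' median of 0.04 ranged from -0.16 (without formaldehyde replicate 2) to 0.0189 with a library left out. The 3 members without overlap became 1 of 7 tested at a mean of at least 5 FPKM, and 4 to 8 of 9 with a library left out (8 without formaldehyde replicate 2), where fewer libraries make a gap more likely. Scaling moved the median of all genes by less than 0.1. The 19 genes called over all genes became 0 with no filter (limma, 956 of 23004 at an unadjusted p under 0.05), 1 with genes of at least 300 nt, and 31 to 55 with a library left out. With the replicate block they were 29, none of them a member; the deviations of same-numbered libraries correlated at 0.25 across genes, and the labels do not say that the numbers pair libraries. The causes were not tested. Depth limits DSC2 most, at 25 to 63 estimated fragments.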
